A study of Mus musculus with 2 samples.

Results

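The genes described here encode the mouse translation initiation factors (symbols beginning Eif and a digit) and elongation factors (Eef and a digit), with their dedicated inhibitors and modifying enzymes. Members were the protein-coding rows of the deposited table with such symbols, without the Eif2ak kinase genes, the eIF2 gamma subunit genes and pseudogenes. This gave 60 of 19498 listed genes, and the choice used names only and no measured value. Eef1akmt4 and Eif4e1b were not analysed here. The 60 members fall into 9 genes of the eIF2 group, 14 of the eIF3 group, 15 of the eIF4 group, 12 of the elongation factor group and 10 other initiation factors (Eif1, Eif5 and Eif6 symbols). The members held 3.74% of all reads in the control library (exact 95% counting interval 3.73 to 3.75) and 3.72% in the LY500307 library (3.71 to 3.73).

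RNA was sequenced from 4T1 cells, a mouse mammary carcinoma line, after control treatment in 1 library and after treatment with LY500307, an agonist of estrogen receptor beta, in the other. The study asked which RNAs differed between them. Both libraries come from the same line with no genetic change named, and no source used here gives the agent added to control cells, the dose or the duration. Reads recovered from the deposited values numbered 14541874 and 15104003. With 1 library per condition no difference below has a replicate check, and more RNA per cell cannot be told apart from more cells that express a gene. Epithelial markers were abundant, with 17073 and 14450 reads for Krt8 and 2195 and 2283 for Epcam. The leucocyte markers Ptprc, Lyz2 and Itgam had 8 reads or fewer in each library, the endothelial markers Pecam1, Cdh5 and Kdr had 6 or fewer, and of 4 fibroblast markers only Pdgfra reached the floor described below, with 271 and 285 reads.

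Translation begins when eIF2 delivers the initiator methionyl-tRNA to the small ribosomal subunit, which eIF3 and the eIF1 and eIF5 proteins help to load and to scan. The eIF4F complex recruits that subunit to capped mRNA through the cap-binding protein eIF4E, the scaffold eIF4G and the helicase eIF4A, and the 4E-BP proteins block it by occupying eIF4E. Elongation is carried out by eEF1, which brings aminoacyl-tRNA, and eEF2, which moves the ribosome along the mRNA. Several of these factors are often abundant in carcinoma cells, and 4E-BP1 is a substrate of the growth-regulating kinase mTORC1.

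Differences between the libraries were small in all groups, and the member furthest below the control was Eif4ebp1, which encodes 4E-BP1. The log2 ratio of LY500307 to control values, each with a pseudocount of 1.03 added, was computed for genes whose higher value reached a floor of 33.0. Of the 60 members 57 reached it. The exceptions were Eif4e3, an eIF4E homologue (5 and 0 reads, where a count of 0 allows up to 3), Eif4ebp3, a 4E-BP gene (3 and 2), and Eef1akmt3, a methyltransferase gene (10 and 11), for which no difference was detectable at this depth. No member was 1.5-fold higher or lower, where 1.8% of the 11384 genes that reached it were 1.5-fold higher and 1.97% lower. At least 1.2-fold higher were 3 members, Eif3j2, Eif5a2 and Eif1a, against a background of 10.5%, and at least 1.2-fold lower were 3, Eif4ebp1, Eif6 and Eif1b, against 15.9%. That background includes many genes with few reads. Where the libraries together held 2000 or more reads, it was 3.87% higher and 10.7% lower, and of the 45 members among them 1 was higher and 2 were lower.

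The members' log2 ratios had a median of −0.032, and the 11384 genes that reached the floor had −0.016 with quartiles of −0.18 and 0.13. Below 0 lay 36 members and above it 21, beside 52.8% of all genes below 0. With the trend described in the next paragraph removed, 35 members lay below 0, beside 53.2% of all genes. With scaling by the total of recovered reads (CPM) in place of the deposited scaling, which raised the median of all genes by 0.032, the split became 28 below and 29 above and the members' median 0.00026. No share of all genes below 0 is given for CPM, here or beside the later counts with it. Centring on the median of all genes puts as many genes below 0 as above, and 32 members then lay below and 25 above. Counting intervals, which cover counting error only, lay above 1 for 15 members and below 1 for 21. The background was 18.1% and 23.7% of all genes, so an interval that excludes 1 is common in this comparison. It is more common among the 3536 genes with at least 2000 reads, which include 45 of the 57 members. Of those genes 1013 had an interval above 1 and 1208 below 1.

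**Figure D1:**
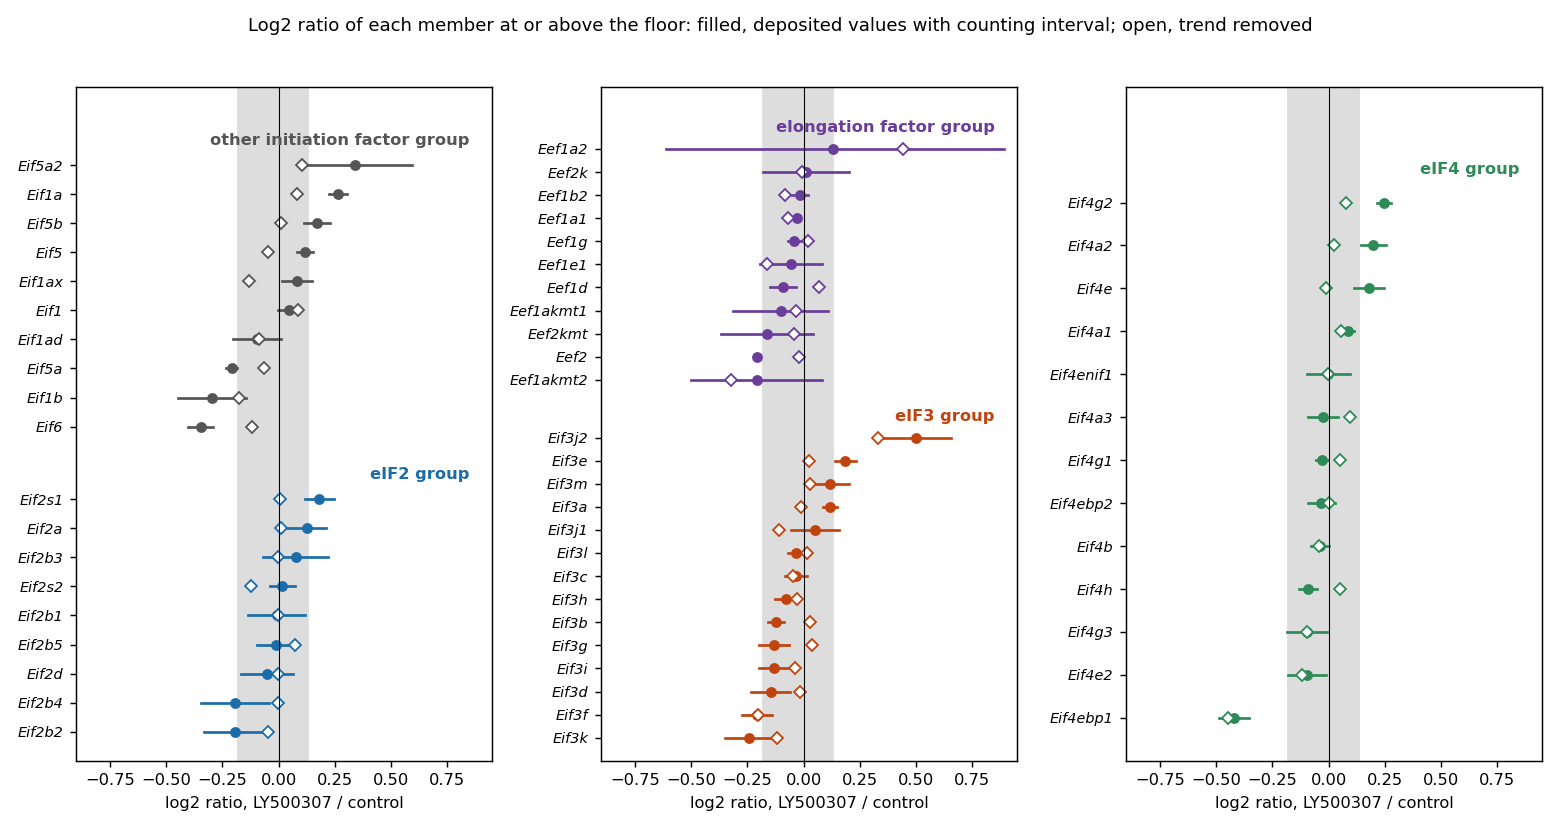
Log2 ratio of the LY500307 to the control library for the 57 members at or above the floor, by group. Filled points are deposited values with their 95% counting intervals, open diamonds are values after removal of the trend in GC content and transcript length, and the grey band spans the quartiles of all genes (−0.18 to 0.13). Eif4ebp1 keeps its place at −0.45 when the trend is removed, whereas Eif6 moves from −0.35 to −0.12.

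The position of a member followed the GC content of its transcript. Over the 57 members Pearson's r between log2 ratio and GC content was −0.69, as was Spearman's rho. Over 11349 nuclear genes r was −0.53 and rho −0.61. These are descriptions across genes of the same 2 libraries, and genes are not replicates. Of 29 members with a GC content up to 50.2%, 18 lay above 0 with a median of 0.082, and of 28 with a higher GC content 3 did, with a median of −0.094. CPM gave 22 and 7 above 0. A smooth trend in GC content and length was therefore fitted over nuclear genes and subtracted. It left the members with a correlation with GC content of 0.10 and narrowed the SD of their log2 ratios from 0.17 to 0.13. Over all genes with at least 2000 reads the SD narrowed from 0.18 to 0.11. In the elongation factor group it widened, from 0.10, the smallest of the 5 groups with deposited values, to 0.19. There the values furthest from 0 were those of Eef1a2, which went from 0.13 to 0.44, and Eef1akmt2, from −0.21 to −0.32. Eef1a2 had 30 and 35 reads and Eef1akmt2 208 and 191, and the counting intervals of both span 1. Ratios below are from the deposited values, and the value with the trend removed is given beside those that the reading turns on. The trend uses the longest coding transcript of a gene. With the longest transcript of any type, an alternative added after the data were seen, 10 of the 57 members lie on the other side of 0 than with the coding transcript, and such values are given where they matter. Why the ratio follows GC content was not tested.

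**Figure D2:**
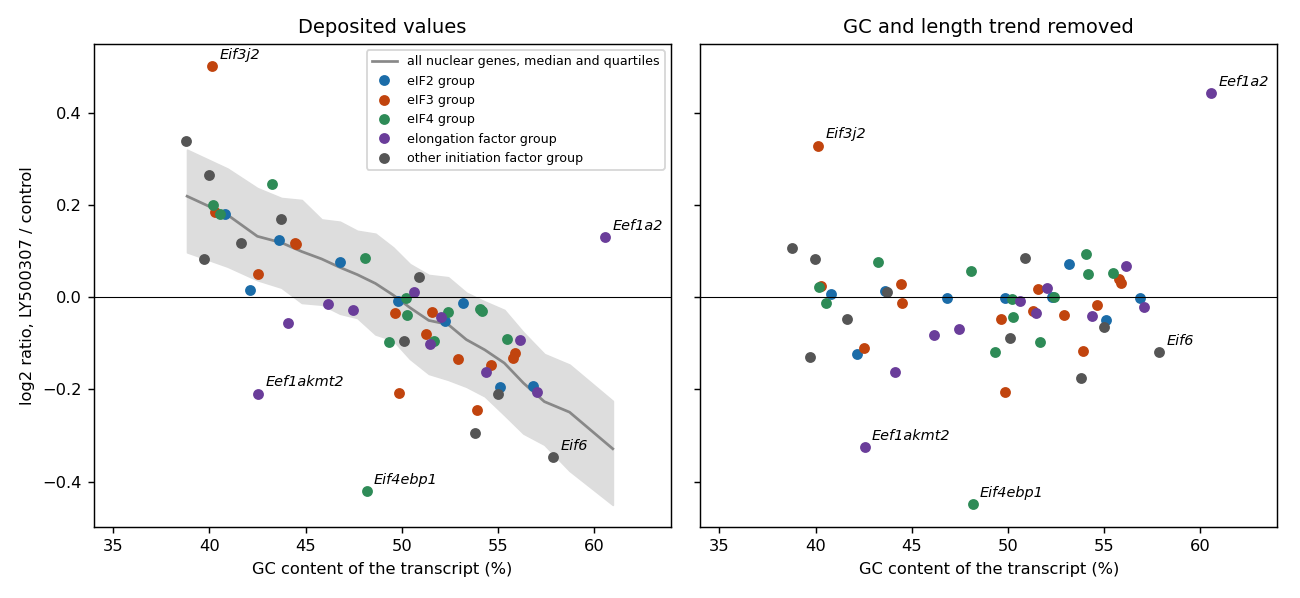
Log2 ratio of each member against the GC content of its longest coding transcript, for deposited values (left) and after removal of the trend in GC content and length (right), coloured by group. The grey line and band on the left are the median and quartiles of the nuclear genes that reached the floor in 20 bins of GC content, whose medians run from 0.22 to −0.33. Eif4ebp1, at a GC content of 48.2%, lies below the band.

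After removal of the trend, 2 members were at least 1.2-fold higher (background 7.61%) and 2 at least 1.2-fold lower (8.07%). The higher ones were Eef1a2, with only 30 and 35 reads and a counting interval that spans 1, and Eif3j2. The lower ones were Eif4ebp1 and Eef1akmt2, a lysine methyltransferase gene with 208 and 191 reads and an interval of its fold from 0.707 to 1.06. Eif6, Eif1b, Eif1a and Eif5a2 no longer reached that size. Of the 3536 genes with at least 2000 reads, 17 were 1.2-fold higher and 68 lower with the trend removed. Eif4ebp1 was the only member among the 17 and the 68.

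The eIF4 group had a median log2 ratio of −0.029, and 0.0033 with CPM, and held the member furthest below the control. Eif4ebp1 (ENSMUSG00000031490) had 4041 reads in the control and 3207 in the LY500307 library. It was 1.34-fold lower (1.28 to 1.40), with a log2 ratio of −0.42. With the trend removed its log2 ratio was −0.45. Among genes with at least 2000 reads this was at percentile 0.170, counted from the lowest, and the deposited ratio at 2.18. Among all genes that reached the floor Eif4ebp1 was at percentile 2.21 with the trend removed and 5.75 with deposited values. Its paralog Eif4ebp2, which encodes another 4E-BP, had 4505 and 4680 reads and stood at 0.978 of the control value (0.939 to 1.02). Eif4enif1, which encodes the eIF4E transporter, had 1680 and 1783 reads and stood at 0.999 (0.934 to 1.07). Of these 3 eIF4E-binding repressors, Eif4ebp1 alone had a counting interval that excluded 1.

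Both 4E-BP mRNAs encode the motif with which these proteins bind eIF4E. The stretches around it are shown because they allow reads of the paralogs to be told apart. They are 60 coding bases each from GENCODE M21 on GRCm38, bases 136 to 195 of the coding sequence of Eif4ebp1 (gene at chr8:27260329-27276674, plus strand) and 139 to 198 of that of Eif4ebp2 (chr10:61428491-61452661, minus strand), with the 21 bases that encode the motif in capitals.
Eif4ebp1: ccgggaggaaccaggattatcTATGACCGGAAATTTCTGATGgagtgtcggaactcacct
Eif4ebp2: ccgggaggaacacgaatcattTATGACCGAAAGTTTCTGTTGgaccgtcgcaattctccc
Of these 60 bases 46 are identical, and 18 of the 21 in the motif. Over the whole coding sequences 68.2% of aligned bases are.

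The target of these repressors lay on the other side of the control. Eif4e, which encodes the cap-binding protein, had 3429 and 4127 reads and lay 1.13-fold higher (1.08 to 1.19). The ratio of Eif4ebp1 to Eif4e reads was 1.18 in the control and 0.777 in the LY500307 library, a decrease by a factor of 1.52 (1.42 to 1.62). On the log2 scale this difference was −0.60, and −0.44 with the trend removed, since the transcript of Eif4e has a GC content of 40.5% and its own log2 ratio went from 0.18 to −0.013. In RPKM (reads per kilobase of the longest coding transcript, scaled to the total of recovered reads), the summed level of Eif4ebp1 and Eif4ebp2 was 193 and 160, and that of Eif4e 47.2 and 54.7. The ratio of these levels was 4.08 and 2.92. The trend was not removed from these levels. They also depend on the length of the longest coding transcript, which may differ from that of the transcripts expressed. Eif4e2, an eIF4E homologue, had 2177 and 2163 reads and stood at 0.935 of the control value (0.881 to 0.993).

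The remaining subunits of eIF4F stayed within 1.2-fold. Eif4g1, the main scaffold gene, had 19974 and 20794 reads and stood at 0.980 of its control value (0.961 to 0.999), and its paralog Eif4g3 had 2025 and 2014 (0.936, 0.880 to 0.996). Eif4g2, which encodes a scaffold homologue without the eIF4E-binding site, had 14533 and 18285 reads and lay 1.18-fold higher (1.16 to 1.21). With CPM Eif4g2 passed 1.2-fold, and with the trend removed its log2 ratio was 0.076 in place of 0.24. Eif4b and Eif4h, cofactors of the helicase, stood at 0.974 (0.947 to 1.002) and 0.939 (0.912 to 0.965). Eif4a3, the helicase of the exon junction complex, had 3423 and 3571 reads and stood at 0.982 (0.937 to 1.03).

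Of the helicase genes of eIF4F, Eif4a1 had 18013 and 20287 reads and lay 1.06-fold higher (1.04 to 1.08), and Eif4a2 had 4649 and 5668 and was 1.15-fold higher (1.10 to 1.19). With the trend removed their log2 ratios were 0.056 and 0.023, and 0.022 and 0.042 with the transcript of any type. The reads of Eif4a1 are uncertain, because the table also lists the processed pseudogene Eif4a-ps4 with 3604 and 3979 reads, 20.01% and 19.6% of those of Eif4a1. Over 1218 aligned bases the pseudogene differs from the coding sequence of Eif4a1 at 1 base. The stretch around that base shows how few reads could separate them. It covers coding bases 504 to 563 of Eif4a1 (chr11:69666936-69672423, minus strand), the same positions of Eif4a-ps4 (chr1:60703932-60705149, plus strand) and bases 510 to 569 of Eif4a2 (chr16:23107444-23114136, plus strand), on GRCm38, with bases that differ from Eif4a1 in capitals.
Eif4a1: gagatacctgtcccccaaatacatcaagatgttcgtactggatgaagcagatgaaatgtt
Eif4a-ps4: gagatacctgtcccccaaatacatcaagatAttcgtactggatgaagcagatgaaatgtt
Eif4a2: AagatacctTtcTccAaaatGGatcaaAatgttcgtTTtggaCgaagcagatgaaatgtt
In this window Eif4a2 differs from Eif4a1 at 10 bases. Reads of Eif4a1 and Eif4a-ps4 summed gave a fold of 1.06 (1.04 to 1.08), close to that of Eif4a1 alone.

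In the eIF3 group, the largest member difference was that of Eif3j2 (ENSMUSG00000043424), which encodes the loosely bound subunit j. It had 591 and 889 reads and lay 1.42-fold higher (1.27 to 1.57), a log2 ratio of 0.50, or 0.33 with the trend removed. The coding sequence of Eif3j1, its paralog, matches that of Eif3j2 at all 786 aligned bases and lacks 6 bases that Eif3j2 has, so few reads within it can be assigned to either gene. Eif3j1 had 1352 and 1488 reads and stood at 1.04 of the control value (0.962 to 1.12). The reads of both together were 1.15-fold higher (1.08 to 1.22). The share of Eif3j2 in them was 30.4% (28.4 to 32.5) in the control and 37.4% (35.5 to 39.4) in the LY500307 library, and no source used here tells how the authors treated reads that match both.

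The other eIF3 subunits lay between a log2 ratio of −0.24 and 0.19, and the group's median was −0.057. Below 0 lay 9 of 14 under all of the deposited, median-centred and CPM scalings, beside 52.8% of all genes with deposited values. With the trend removed 8 of 14 did, beside 53.2% of all genes, and the group's median was −0.014. Eif3b, Eif3d, Eif3g and Eif3i, which encode the subunits outside the octamer core, lay close together, with log2 ratios of −0.12, −0.15, −0.13 and −0.13 and transcripts of 52.9% to 55.9% GC. With the trend removed they were 0.030, −0.017, 0.039 and −0.040. With the transcript of any type Eif3d and Eif3i stayed lower, at −0.094 and −0.16, and Eif3b and Eif3g were 0.043 and 0.044. The 8 members of the octamer core were spread more widely. Eif3k had 1557 and 1396 reads and was 1.18-fold lower (1.10 to 1.27), and Eif3f had 3700 and 3405 and was 1.15-fold lower (1.10 to 1.21). Eif3e, a core subunit gene also known as a site of viral insertion in mouse mammary tumours, had 7017 and 8477 reads and lay 1.14-fold higher (1.10 to 1.17). Eif3a, which encodes the largest subunit, had 16270 and 18731 (1.08-fold higher, 1.06 to 1.11), and Eif3m had 2234 and 2575 (1.09-fold higher, 1.03 to 1.15). A pseudogene row resembling Eif3m over 1125 bases at 98.5% identity held 255 and 278 reads. Both together were 1.08-fold higher (1.02 to 1.14). Eif3h stood at 0.947 of the control value (0.915 to 0.980), Eif3c at 0.976 (0.944 to 1.01) and Eif3l at 0.977 (0.952 to 1.004).

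Removal of the trend narrowed the SD of the core subunits from 0.16 to 0.081, or 0.069 with the transcript of any type, but left Eif3f in place. The log2 ratio of Eif3e went from 0.19 to 0.024, that of Eif3a from 0.12 to −0.012 and that of Eif3k from −0.24 to −0.12. With the transcript of any type Eif3e was −0.047, Eif3m −0.056 in place of 0.029, and Eif3k −0.16. The log2 ratio of Eif3f was −0.21 before and −0.20 after removal, at percentiles 17.6 and 4.78 of genes with at least 2000 reads. Among all genes that reached the floor these percentiles were 22.2 and 12.6. Per length the stoichiometric subunits of eIF3 were not equally represented in the control library. Eif3l had an RPKM of 378, Eif3h 346, Eif3e 320, Eif3b 304, Eif3i 228, Eif3g 227 and Eif3a 218. Lower stood Eif3c with 138, Eif3m with 120, Eif3k with 118, Eif3f with 101 and Eif3d with 82.7, and Eif3j1 and Eif3j2 had 17.2 and 17.1. These levels use the longest coding transcript, whose length may differ from that of the transcripts expressed.

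**Figure D3:**
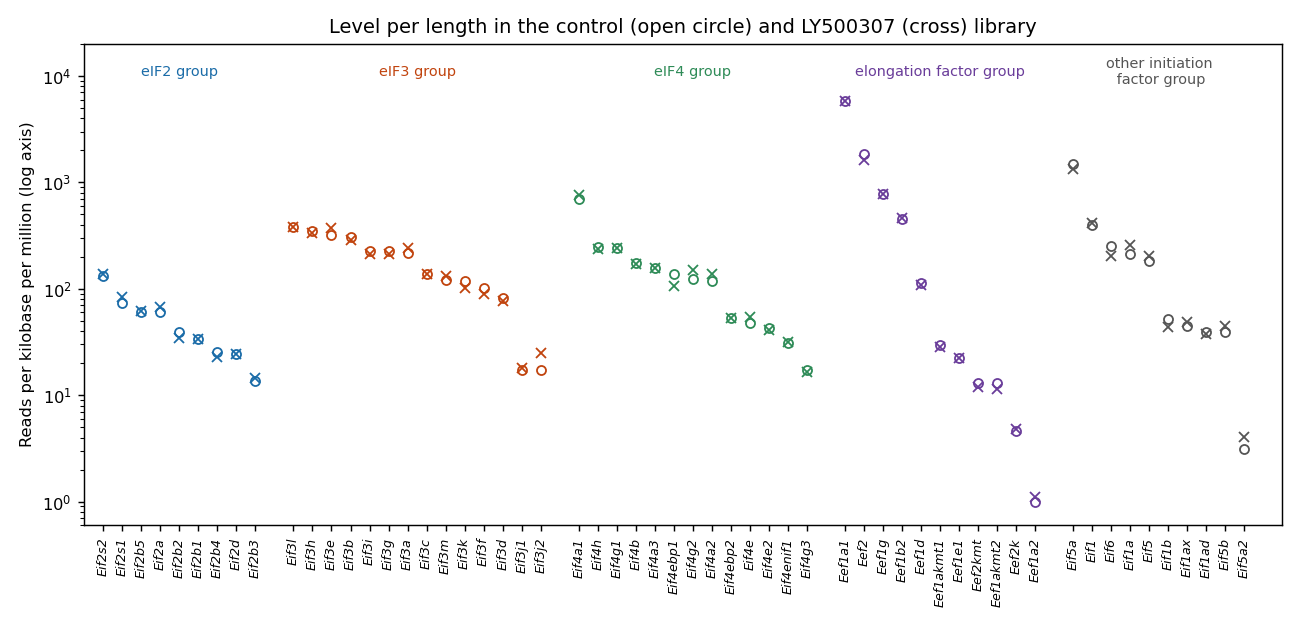
Level of each member at or above the floor in RPKM, on a log axis, with open circles for the control and crosses for the LY500307 library. Members are ordered by control level within each group. Eef1a1 stands highest at 5817 and 5837, and circle and cross lie close together for each member on this scale.

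No gene of the eIF2 group was 1.2-fold apart. The SD of the group's log2 ratios was 0.13, and 0.052 with the trend removed, the smallest of the 5 groups by that measure. Its median was −0.0082, and 0.024 with CPM. Eif2s1, which encodes the alpha subunit whose phosphorylation shuts down general initiation, had 3607 and 4343 reads and lay 1.13-fold higher (1.08 to 1.19). Its log2 ratio of 0.18 went to 0.0077 with the trend removed, at a GC content of 40.8%. Eif2s2, the beta subunit gene, had 4885 and 5248 reads and stood at 1.01 of the control value (0.973 to 1.05). Its log2 ratio went from 0.016 to −0.12 when the trend was removed, the lowest of the group, and to −0.18 with the transcript of any type. A pseudogene row resembling Eif2s2 over 992 bases at 99.5% identity held 486 and 517 reads, and the fold of both together was also 1.01.

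The 5 genes of eIF2B, the exchange factor that recharges eIF2 with GTP, had a median of −0.012, closer to 0 than the shift of 0.032 that CPM brings. Eif2b2 had 908 and 843 reads (1.14-fold lower, 1.04 to 1.26) and Eif2b4 had 756 and 702 (1.14-fold lower, 1.03 to 1.27). Their GC contents are 55.1% and 56.8%, and with the trend removed the log2 ratios went from −0.19 each to −0.049 and −0.0022. Eif2b1, Eif2b3 and Eif2b5 stood at 0.994, 1.05 and 0.992 of the control value, with intervals that span 1. Eif2b5, which encodes the catalytic subunit, had the highest RPKM of them, 60.8 and 61.6. Eif2a and Eif2d encode factors that can deliver tRNA to the ribosome without eIF2. Eif2a had 2021 and 2340 reads (1.09-fold higher, 1.03 to 1.16) and Eif2d 1187 and 1216 (0.965, 0.890 to 1.05).

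In the elongation factor group 9 of 11 members at or above the floor lay below 0, beside 52.8% of all genes, and 7 with CPM. The group's median was −0.056, and none was 1.2-fold apart in the deposited values. With the trend removed 8 lay below 0, beside 53.2% of all genes, and the median was −0.035. Eef1a1, the subunit that carries aminoacyl-tRNA, had 151748 and 158167 reads and stood at 0.981 of the control value (0.974 to 0.988). With CPM it lay slightly above 1, as its RPKM levels of 5817 and 5837 show. Eef2, the translocase gene, had 82550 and 75983 reads and was 1.15-fold lower (1.14 to 1.17). Its transcript has a GC content of 57.04%, and its log2 ratio went from −0.21 to −0.022 with the trend removed. The exchange factor genes of eEF1 stood close to the control, Eef1b2 at 0.990 (0.966 to 1.01), Eef1g at 0.971 (0.953 to 0.990) and Eef1d at 0.938 (0.900 to 0.977). With the trend removed the log2 ratio of Eef1g turned from −0.042 to 0.021 and that of Eef1d from −0.092 to 0.069, while with the transcript of any type Eef1d was −0.12. Eef1e1, which encodes a protein of the multi-tRNA synthetase complex, had 837 and 855 reads (0.962, 0.873 to 1.06).

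The level of Eef1g is uncertain, since the pseudogene row Gm4366 resembles it over 1342 bases at 99.6% identity and held 7603 and 7919 reads. Together with its copies Eef1g stood at 0.973 (0.958 to 0.989). Eef1a2, the form of eEF1A typical of muscle and neurons, held 0.0198% (0.0133 to 0.0282) and 0.0221% (0.0154 to 0.0308) of the reads of both eEF1A genes. Eef2k, which encodes the kinase that inactivates eEF2, had 445 and 476 reads and stood at 1.01 (0.883 to 1.15). Eef2kmt, a methyltransferase gene, had 413 and 392 (0.894, 0.776 to 1.03) and Eef1akmt1 380 and 376 (0.932, 0.806 to 1.08). Elongation subunits took 1.88% of all control reads and 1.82% of LY500307 reads, with exact counting intervals of 1.88 to 1.89 and 1.81 to 1.83.

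Among the deposited values the other initiation factors were spread most widely, with an SD of 0.23, but with the trend removed it was 0.10 and only that of the eIF2 group was smaller. Their median was 0.063, and −0.056 with the trend removed. Eif6, which encodes a protein that keeps the large ribosomal subunit from joining too early, had 5462 and 4563 reads and was 1.27-fold lower (1.22 to 1.32), a log2 ratio of −0.35. Its GC content of 57.9% is the highest of the members with at least 2000 reads, and its log2 ratio was −0.12 with the trend removed. Eif1b, an Eif1 paralog, had 787 and 681 reads and was 1.23-fold lower (1.11 to 1.36), and −0.17 on the log2 scale with the trend removed. Eif1, which guards start codon choice, had 7578 and 8302 reads and stood at 1.03 of the control value (0.9997 to 1.06).

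Eif1a, which encodes the scanning factor eIF1A, had 8788 and 11220 reads and lay 1.202-fold higher (1.17 to 1.24), and its paralog Eif1ax had 3368 and 3786 (1.06-fold higher, 1.01 to 1.11). Both transcripts have similar GC contents, 39.97% and 39.7%. The log2 ratio of Eif1a went from 0.27 to 0.083 with the trend removed, and that of Eif1ax turned from 0.082 to −0.13. The ratio of Eif1a to Eif1ax reads went from 2.61 to 2.96, a factor of 1.14 (1.08 to 1.199), and the difference of their log2 ratios was 0.18 before and 0.21 after removal of the trend. Eif5, the GTPase activator of eIF2, had 10780 and 12422 reads (1.08-fold higher, 1.06 to 1.11), and Eif5b, the GTPase of subunit joining, had 4414 and 5275 (1.13-fold higher, 1.08 to 1.17). With the trend removed these were −0.047 and 0.011 on the log2 scale. Eif1ad had 1455 and 1446 reads (0.936, 0.869 to 1.01).

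The eIF5A genes, whose products carry the modified lysine hypusine and help ribosomes through difficult peptide bonds, lay on opposite sides of the control. Eif5a had 31285 and 28751 reads and was 1.16-fold lower (1.14 to 1.17), and Eif5a2 had 227 and 305 reads and lay 1.27-fold higher (1.06 to 1.51). The share of Eif5a2 in the reads of both was 0.720% (0.630 to 0.820) and 1.05% (0.936 to 1.17). Their transcripts differ in GC content, 55.0% for Eif5a and 38.8% for Eif5a2, and the difference of their log2 ratios went from 0.55 to 0.17 with the trend removed. The first 60 coding bases of Eif5a (chr11:69916714-69921958, minus strand) and Eif5a2 (chr3:28781276-28798846, plus strand) on GRCm38 show how far the paralogs have diverged, with the 17 bases that differ from Eif5a in capitals.
Eif5a: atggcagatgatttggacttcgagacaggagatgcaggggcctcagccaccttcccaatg
Eif5a2: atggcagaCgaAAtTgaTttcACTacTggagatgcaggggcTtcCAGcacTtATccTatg
Over the whole coding sequences 73.2% of aligned bases are identical.

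**Figure D4:**
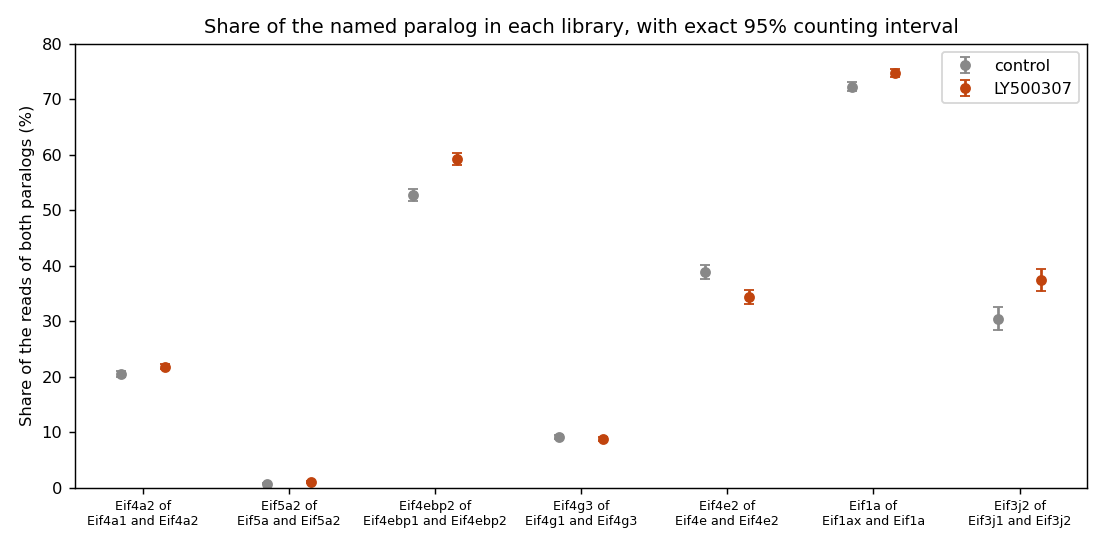
Share of the named paralog in the summed reads of a pair, in percent, for the control (grey) and LY500307 (orange) library, with exact 95% counting intervals. The share of Eif4ebp2 was 52.7% in the control and 59.3% in the LY500307 library, that of Eif3j2 30.4% and 37.4%, and that of Eif4e2 38.8% and 34.4%.

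Within pairs of paralogs, where both genes were counted in the same libraries, removal of the trend left the differences between the 4E-BPs, the eIF3j genes and the eIF1A genes about as large and changed others. Eif4ebp2 made up 52.7% (51.6 to 53.8) of their reads in the control and 59.3% (58.2 to 60.4) in the LY500307 library, a log2 difference of 0.39, and 0.45 with the trend removed. For Eif3j2 against Eif3j1 the log2 difference went from 0.45 to 0.44, and for Eif1a against Eif1ax from 0.18 to 0.21. For Eif4a2 the share was 20.5% (19.99 to 21.05) and 21.8% (21.3 to 22.3), and the log2 difference of 0.11 went to −0.033 with the trend removed. Its sign depends on the trend setting, since with the transcript of any type Eif4a2 was 0.042 and Eif4a1 0.022. For Eif4e2 against Eif4e the log2 difference went from −0.28 to −0.10. For Eif4g3 the share was 9.20% (8.83 to 9.59) and 8.83% (8.47 to 9.21), and the log2 difference went from −0.066 to −0.15.

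Members known as terminal oligopyrimidine mRNAs, whose translation mTORC1 controls, did not stand apart in level from the others by their median. The 10 such members were Eef1a1, Eef1a2, Eef1b2, Eef1d, Eef1g, Eef2, Eif3e, Eif3f, Eif3h and Eif4b. They had a median log2 ratio of −0.040, and the other 47 at or above the floor had −0.029, with CPM shifting both by 0.032. With the trend removed the medians were −0.026 and −0.0049. Below 0 lay 8 of the 10 and 28 of the 47, beside 52.8% of all genes. With the trend removed 6 and 29 did, beside 53.2%. Counting intervals of deposited values lay below 1 for 6 of the 10 and 15 of the 47, beside 23.7% of all genes. None of the 10 was 1.2-fold apart in the deposited values. The lowest were Eif3f and Eef2, at −0.21 each, and the highest was Eif3e, at 0.19. With the trend removed these were −0.20, −0.022 and 0.024. Eef1a2, with 30 and 35 reads, was then highest at 0.44 and the only 1 of the 10 that was 1.2-fold apart.

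Among related genes that are not members, those of termination and ribosome recycling had the highest median, 0.23, with 7 of 8 above 0 and 4 at least 1.2-fold higher. Of all 11384 genes that reached the floor 5375 lay above 0. Mcts2 and Mcts1 encode partners of the recycling factor DENR. Mcts2 had 132 and 208 reads (1.48-fold higher, 1.19 to 1.86) and Mcts1 374 and 553 (1.39-fold, 1.22 to 1.59), with log2 ratios of 0.53 and 0.33 when the trend is removed. Denr itself had 2203 and 2312 reads and was the lowest of the list, at 0.988 of the control value (0.932 to 1.05). Also 1.2-fold higher were Abce1, at 0.27 and at 0.080 with the trend removed, and Pelo, at 0.29 and 0.52. Pelo had only 86 and 112 reads and a counting interval that spans 1 (0.918 to 1.64). The list's median with the trend removed was 0.10, and 3 of the 8 were then at least 1.2-fold higher, beside 7.61% of all genes. Other lists had medians of 0.046 for cap and poly(A) partners, where 1 of 13 was 1.2-fold higher and none lower, and 0.026 for mitochondrial translation factors, where 2 of 11 were higher and none lower. With the trend removed none of these 13 and 1 of these 11 was 1.2-fold apart. In the first of these lists Larp4 was highest at 0.27 and Mknk2 lowest at −0.20, and with the trend removed they were 0.025 and 0.090. In the second Mtif3, the mitochondrial initiation factor 3 gene, had 157 and 240 reads and lay 1.44-fold higher (1.17 to 1.77), and Mtfmt was lowest at −0.22.

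Genes for the synthesis of hypusine and diphthamide, the modifications of eIF5A and eEF2, had a median of −0.022, again within the CPM shift of 0, with 1 of 9 at least 1.2-fold lower. This was Dohh, which completes hypusine, at 493 and 323 reads (a fold of 0.617, 0.534 to 0.711). Its transcript has a GC content of 62.5%, and its log2 ratio went from −0.70 to −0.30 with the trend removed. Highest was the diphthamide gene Dnajc24, at 0.19. Genes of mTORC1, its upstream regulators (Rheb, Tsc1, Tsc2, Tbc1d7) and its S6 kinase substrates (Rps6kb1, Rps6kb2) had a median of −0.090, with 2 of 11, Deptor and Tsc1, at least 1.2-fold higher and 1 lower. Akt1s1, which encodes the mTORC1 inhibitor PRAS40, was lowest, at 1152 and 848 reads (0.693, 0.634 to 0.758), and went from −0.53 to −0.17 with the trend removed. Deptor, another inhibitor, was highest with 1027 and 1335 reads (1.22-fold higher, 1.13 to 1.33), and its log2 ratio was 0.14 with the trend removed. The median of these mTORC1 genes was then −0.028, and Tsc1, at 0.28, was the only one 1.2-fold apart. Genes of selenocysteine insertion had a median of 0.088 and none of 5 was 1.2-fold apart, with Sephs2 highest at 0.14 and the elongation factor gene Eefsec lowest at −0.015. With the trend removed Sephs2 was 0.20 and Eefsec 0.16, and Sepsecs was lowest at −0.025. These lists are described by counts and medians, with no test, beside the background of 10.5% higher and 15.9% lower over all genes.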

How the data were processed

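Total RNA of 1 control-treated and 1 LY500307-treated 4T1 culture was extracted with TRIzol, freed of ribosomal RNA and made into stranded libraries, per the labels' protocols. CASAVA 1.8, Bowtie2 and the build mm9 are named, with no role, per the submitters' processing notes. No source used here gives the read counter, its annotation, its use of strand or its treatment of reads with several matches. The deposited unit is a signal, gene read counts rescaled to a common size, as seen from the values themselves. All values are whole multiples of the worth of 1 read, 1.03 in the control and 0.970 in the LY500307 library. After division by it 100% were whole to a tolerance of 0.01, with largest deviations of 0.0027 and 0.0030, and these whole numbers are called reads. Symbols came from GENCODE M21 by gene ID, for 19443 of 19498 rows.

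With 1 library per group no count model can be fitted, and no p-value is given. Pseudocount and floor are the 5th and 40th percentiles of values above 0. A fold is the ratio of deposited values without pseudocount, with a 95% interval rescaled from exact Clopper-Pearson bounds on the LY500307 share of reads. The reads carry no molecular identifiers, so these intervals cover counting error only. The trend is a robust (Huber) fit of cubic splines, 5 degrees of freedom for each of GC content and log2 length of the longest coding transcript, limited to the 1st and 99th percentiles (statsmodels 0.14.6). It was tested on simulated data. Pseudogene copies were rows aligned by blastn 2.17.0 over at least 200 bases and 50% of their length at 90% identity or more. Members are all accounted for, and values in full are given for those at least 1.2-fold apart, the extremes and most abundant of each group, and close paralogs. Of each related list the highest and lowest are named, and further genes were chosen after their values were seen. Members and lists were chosen with earlier results of these data known.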

Additional observations from a re-analysis of the deposited data

How the results depend on the processing

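No paired analysis was possible because each condition has 1 library, and for the same reason no replicate could be left out. Members at least 1.2-fold lower numbered 5 without a floor in place of 3, because Eif4e3 and Eif4ebp3, with 5 reads or fewer in each library, then count, and members at least 1.5-fold lower numbered 1 in place of 0, which is Eif4e3. The median of the other initiation factors, 0.063, became −0.056 with the trend in GC content and length removed, −0.045 with that trend taken from the longest transcript of any type, a setting added after the data were seen, and −0.037 from summed values, to which Eif5a and Eif6 contribute most below 0. The eIF4 median, −0.029, became 0.032 from summed values. The other counts of members past 1.2-fold and 1.5-fold moved by at most 1.5 times (3 higher and 3 lower became 2 each with the trend removed), and the other medians by less than the median half-width of their members' counting intervals, under CPM, median-centring, a pseudocount of 1, removal of the trend, no floor and a floor of 50 reads. Of the log2 ratios of the 57 single members, 34 moved by more than the half-width of their counting interval when the trend was removed, 8 with CPM, 2 with median-centring and 0 with a pseudocount of 1. Counts on either side of 0 moved more: with CPM those below 0 went from 9 to 5 of 13 in the eIF4 group, from 5 to 3 of 9 in the eIF2 group and from 9 to 7 of 11 among elongation factors. CPM raises the ratios of all genes as well, and no share of all genes below 0 stands beside these counts. Of the 57 members 10 changed sign between the trend settings, Eef1d the furthest, from 0.069 to −0.12. No member that was 1.2-fold apart changed sign under these settings. Depth limits the 3 members below the floor and Eef1a2, for which a difference of the size seen elsewhere would not have been detectable.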
